A study of Xenopus allofraseri with 8 samples.

Results

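The *ddit3* gene of the knee extensors was described here through the 8 assembled isoforms of the Trinity gene TR63133|c6_g1, out of 218541 transcripts in 163981 Trinity genes. A Trinity gene is a set of transcripts that the assembler built from shared sequence. Its isoforms, here written i1 to i8, can be splice forms, alleles, partial copies or homoeologs. Homoeologs are copies of a gene that come from different parental species of an allotetraploid, which the study states *Xenopus allofraseri* to be. All transcripts whose name begins with this gene's name were taken as members. The symbol comes from the supplementary list of the study, in which 3 entries are named *ddit3*. All 3 had the direction, log2 fold change and FDR of transcripts of this gene in edgeR's exact test, and all 103 entries of that list could be joined to 1 transcript each. The gene was thus chosen by the very contrast of endurant and burst-performant frogs whose values are given here, on the counts of these same libraries, and these values are a description with no test. The symbol is that of the best match in *Xenopus laevis* or *Xenopus tropicalis*, and with no transcript sequence or genome used here it could not be checked against the assembled isoforms. The study gave symbols only to transcripts called in its contrast. Other Trinity genes may thus hold *ddit3* transcripts without a label, and the gene total below is that of this Trinity gene.

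The RNA was from the right knee extensors of 8 wild-caught adult males of *Xenopus allofraseri* from 1 pond, for which the labels give no treatment, with 1 library per frog. The study classed frogs A, D, E and G as endurant and frogs B, C, F and H as burst-performant (n = 4 each) from 4 performance traits, namely distance and time covered before exhaustion and the maximum velocity and acceleration of a burst. The estimated counts of read pairs summed to between 4715086 and 17358451 per endurant frog and to between 4448539 and 13610554 per burst-performant frog. Among symbols of the study's list that belong to skeletal muscle, *tmod4*, *mybpc2* and *ocm4.1* had counts over their Trinity genes in all 8 frogs. The level of *tmod4*, which caps the pointed ends of thin filaments, ran from 111.5 to 296.1 CPM. The Trinity gene labelled *fsd2*, which has 1 transcript of 525 bases, was at 0 in every endurant frog and in burst-performant frog H. All of these symbols had been listed for a transcript that differed between these same groups. They are thus no independent measure of muscle content. The Trinity gene labelled *spib.S*, a transcription factor of blood cells, had a level of 14.5 ± 3.34 CPM among endurant and of 17.3 ± 6.03 CPM among burst-performant frogs (SD, n = 4 each), and its part in the values of *ddit3* was not tested.

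DDIT3, also called CHOP, is a transcription factor of the C/EBP family with a leucine zipper. In mammals it is held low in unstressed cells and is induced when unfolded proteins accumulate in the endoplasmic reticulum, through the kinase PERK, the initiation factor eIF2-alpha and the activator ATF4. It pairs with other C/EBP proteins, alters their choice of targets, and promotes apoptosis when stress is prolonged. Muscle fibers hold a large sarcoplasmic reticulum, and in mammals contractile activity is known to engage this stress response.

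In rounded counts, 4 to 7 *ddit3* isoforms were found in each of the 4 endurant frogs and 1 or 2 in each of the 4 burst-performant frogs. The number found depends on the counts of the gene, which were only 18 and 10 in burst-performant frogs C and H. Burst-performant frogs B and F, with 72 and 143 counts, had 2 isoforms each, of which 1 in frog F rested on 1 count. The isoforms i5, i6 and i8 had counts in every endurant frog and were at 0 in every burst-performant frog. The isoforms i2 and i4 were found in both groups, and i2 held most of the burst-performant counts. Over all isoforms the gene averaged 14.9 ± 3.99 CPM (counts scaled to a total of 1000000 per frog with edgeR's TMM factors) among endurant and 5.0 ± 3.05 CPM among burst-performant frogs (SD, n = 4 each), 2.98 times higher in endurant individuals by the ratio of the means. In whole muscle, a lower share of expressing cells and less RNA per cell cannot be told apart.

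**Figure D1:**
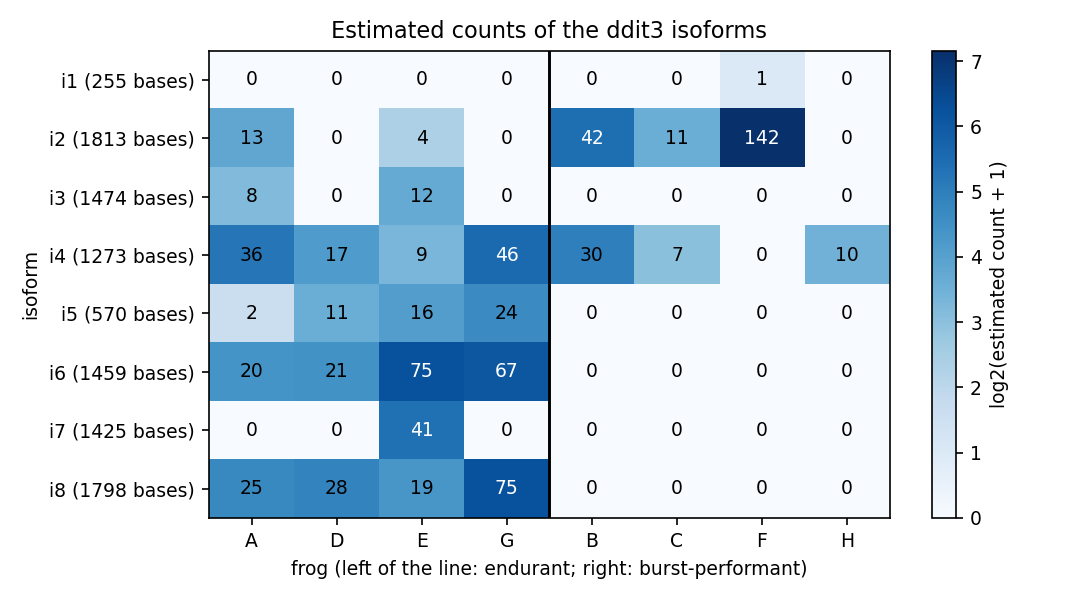
Estimated counts, rounded to whole numbers, of the 8 ddit3 isoforms (rows, with their length in bases) in the 8 frogs (columns), with the shade giving log2(count + 1). Rows i5, i6 and i8 are filled in all 4 endurant frogs and at 0 in all 4 burst-performant frogs, i7 is filled only in frog E, and the highest value, 142, is i2 in frog F.

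The isoform i6, of 1459 bases, had the most counts of the 3 entries of the study's list. Its counts were 20 in frog A, 21 in D, 75 in E and 67 in G, all endurant, against 0 in each of the 4 burst-performant frogs. This corresponded to 4.42 ± 1.52 CPM in endurant individuals (SD, n = 4), and it had the smallest relative spread among endurant frogs of the 7 isoforms with counts in that group. Its pooled endurant counts over pooled depth were 62.2 times those of a floor of 3 counts over the pooled burst-performant depth. This describes the pooled reads and no single frog. As i5, i6 and i8 were chosen for their difference on these same counts, such folds restate that choice. The floors stand for the error of counting in the burst-performant group only, with the endurant counts taken as exact. The intervals cover only the error of counting, as reads carried no molecular identifiers and are not independent molecules. Floors and intervals cover neither the spread between frogs nor the sharing of read pairs among isoforms.

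The isoform i8, of 1798 bases, was counted 25 times in frog A, 28 in D, 19 in E and 75 in G among endurant frogs and 0 times in the burst-performant group. Its level was 4.30 ± 2.68 CPM in endurant individuals (SD, n = 4). Its pooled endurant counts over pooled depth were 50.0 times those of the same floor. Frog E had the lowest level of i8, at 1.15 CPM, although its i6 level, at 4.53 CPM, was close to that of frog D, at 4.62 CPM. The balance of the estimated counts of both isoforms thus varied among endurant frogs. The isoform i6 held 42.6% of the gene's counts in frog E (Wilson 95% interval 35.5 to 50.0%) and 19.2% in frog A (12.8 to 27.8%). These intervals do not overlap, but they leave out the sharing of read pairs among isoforms. For i8, the shares were 10.8% in frog E (7.02 to 16.2%) and 35.4% in frog G (29.3 to 42.0%).

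The isoform i5 is the shortest of the 3, with 570 bases. Frog A had 2 counts, D 11, E 16 and G 24, and no burst-performant frog had any. Its pooled endurant counts over pooled depth were 18.0 times those of the same floor, a value that describes no single frog. Frog A, with 0.242 CPM, had far less of i5 than frogs D and G, with 2.42 and 2.19 CPM. Corrected for length, i5 was among the most abundant isoforms of endurant individuals, at 2.51 ± 1.86 TPM (transcripts scaled to a sum of 1000000 per frog; SD, n = 4), beside 2.35 ± 0.956 TPM for i6 and 1.85 ± 1.22 TPM for i8. The spread between frogs exceeded the differences between these 3 levels.

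The depth bears on how firmly these isoforms can be called absent. At the lowest endurant level of i6, that of frog A, the counts to be expected were 31.4 in burst-performant frog B, 17 in C, 38.0 in F and 8.67 in H. At the lowest level of i8, that of frog E, the expected counts were 14.9, 8.08, 18.0 and 4.11. At the lowest level of i5, they were 3.14, 1.70, 3.80 and 0.867 in the same order, so that these depths leave an i5 level as low as that of frog A, which rests on 2 counts, least well distinguished from 0 in frogs C and H. A count of 0 with a floor of 3 counts allows up to 0.231, 0.426, 0.191 and 0.838 CPM in frogs B, C, F and H. These expected counts and limits take counting as the only error. They do not cover the sharing of read pairs among isoforms, which can leave an isoform at 0 at any depth.

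The isoform i2 is the longest, with 1813 bases, and showed the opposite tilt without separating the groups. Among endurant frogs it had 13 counts in A, 4 in E and 0 in D and G, against 42 in B, 11 in C, 142 in F and 0 in H of the burst-performant group. The endurant mean was 0.454 ± 0.755 CPM and the burst-performant mean 3.46 ± 3.95 CPM (SD, n = 4 each), so that the spread between burst-performant frogs was larger than their mean. Frog F alone held 142 of the 195 burst-performant counts, and burst-performant frog H had none. The groups overlapped, since endurant frog A lay above burst-performant frog H and level with frog C.

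The isoform i4, of 1273 bases, was the most widely shared, with counts in 7 of the 8 frogs. Frogs A, D, E and G, all endurant, had 36, 17, 9 and 46 counts, against 30, 7, 0 and 10 in frogs B, C, F and H. The endurant mean was 3.21 ± 1.80 CPM and the burst-performant mean 1.52 ± 1.27 CPM (SD, n = 4 each). The groups overlapped, and the difference of the means was smaller than the larger of both spreads. In frog H, i4 was the only isoform found, with 10 of 10 counts (Wilson 95% interval 72.2 to 100% of the gene).

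The other 3 isoforms were found in 2 frogs at most. The isoform i7, of 1425 bases, had 41 counts in endurant frog E and none elsewhere, and held 23.3% of that frog's gene total (17.7 to 30.1%). The isoform i3, of 1474 bases, had 8 counts in frog A and 12 in frog E, both endurant, and 0 in the other 6. The isoform i1, of 255 bases, had 1 count, in burst-performant frog F, and an estimate under 0.5 counts in frog C, which was rounded to 0. Isoforms i1, i3 and i7 did not reach a CPM above 1 in at least 2 frogs and were not tested, which left 5 of the 8.

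**Figure D2:**
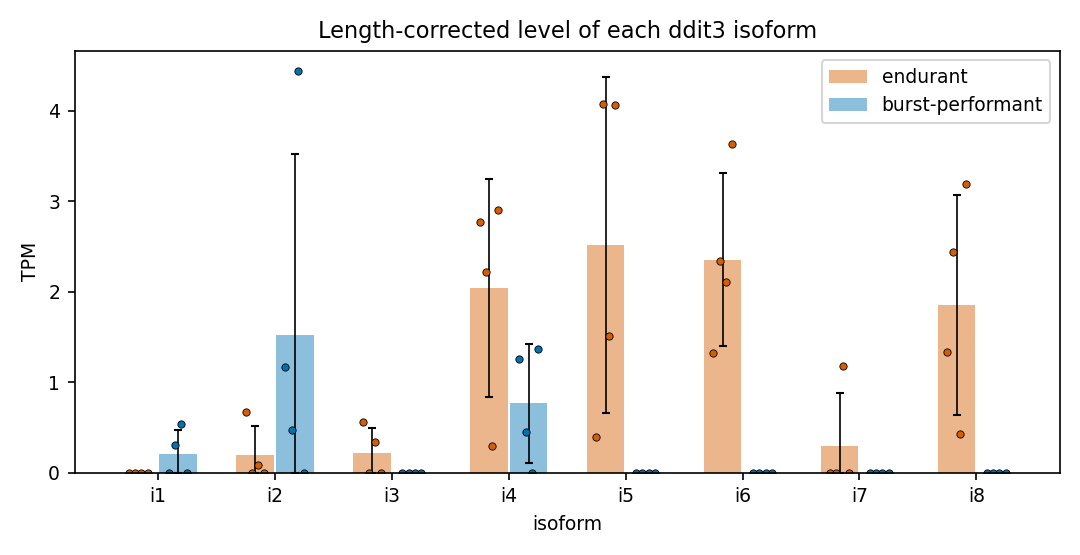
TPM of each ddit3 isoform, with bars for the mean of the 4 endurant (left) and 4 burst-performant frogs (right), points for single frogs and error bars for the SD, ended at 0 where the SD is larger than the mean. The endurant means of isoforms i5, i6 and i8 stand between 1.85 and 2.51 TPM, with single endurant frogs from 0.400 to 4.08 TPM, and all burst-performant frogs are at 0, while the points of i2 and i4 overlap.

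The threshold of the study was a Benjamini-Hochberg FDR of 0.05 or less with a log2 fold change of 2 or more in size. By the quasi-likelihood test of edgeR, 0 of the 5 tested isoforms passed it, as did 0 of all 55631 tested transcripts (0% called), of which 2038 had an unadjusted p under 0.05. In edgeR's exact test, 3 of the 5 passed it in the endurant direction, and over all tested transcripts 0.11% did so (0.196% in either direction). In DESeq2's Wald test the same 3 passed, against 0.151% of all transcripts in that direction and 0.275% in either. Nothing follows from these counts, since the exact test chose the gene. Of the members in the exact test with Benjamini-Hochberg adjustment, i5 was the nearest inside the threshold, with an adjusted p of 0.032, and i2 was the nearest outside by its unadjusted p, with an adjusted p of 1. The median fitted log2 fold change of endurant against burst-performant was 6.86 over the 5 tested isoforms and 0.01 over all tested transcripts. In absolute size, the median over all tested transcripts was 0.46. As 3 of the 5 isoforms were chosen by this contrast, their median restates that choice. The fitted values of i5, i6 and i8 depend on the prior count, as 1 group is at 0.

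The 3 isoforms i5, i6 and i8 were those whose lowest endurant frog lay above the highest burst-performant frog. This held for 1.61% of all tested transcripts in that direction. Counts in every endurant frog with 0 in every burst-performant frog were found for the same 3 and for 0.0971% of all tested transcripts. Of the 102 Trinity genes with a transcript called by the exact test, 6 held 2 or more called transcripts and 1, this gene, held 3. The exact test chose the gene on these same counts, so that all of this restates the choice. Nothing is read from it. In total, 482 Trinity genes had exactly 8 transcripts.

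Summed over its isoforms, the *ddit3* gene had 104 counts in frog A, 77 in D, 176 in E and 212 in G of the endurant group, against 72 in B, 18 in C, 143 in F and 10 in H of the burst-performant group. On the CPM scale the endurant totals were 12.6 in A, 16.9 in D, 10.6 in E and 19.4 in G, and the burst-performant totals were 5.54 in B, 2.56 in C, 9.10 in F and 2.79 in H. All 4 endurant totals were above all 4 burst-performant ones, but frogs E and F were close. The exact 95% counting intervals of frog E (9.11 to 12.3 CPM) and frog F (7.67 to 10.7 CPM) overlapped. When only the library size was used for scaling, the order of both turned, with 10.4 CPM in frog E and 11.4 CPM in frog F, so that the groups no longer stood apart. By summed TPM, which accounts for isoform length, the gene was at 9.47 ± 3.62 TPM in endurant and 2.50 ± 1.74 TPM in burst-performant individuals (SD, n = 4).

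**Figure D3:**
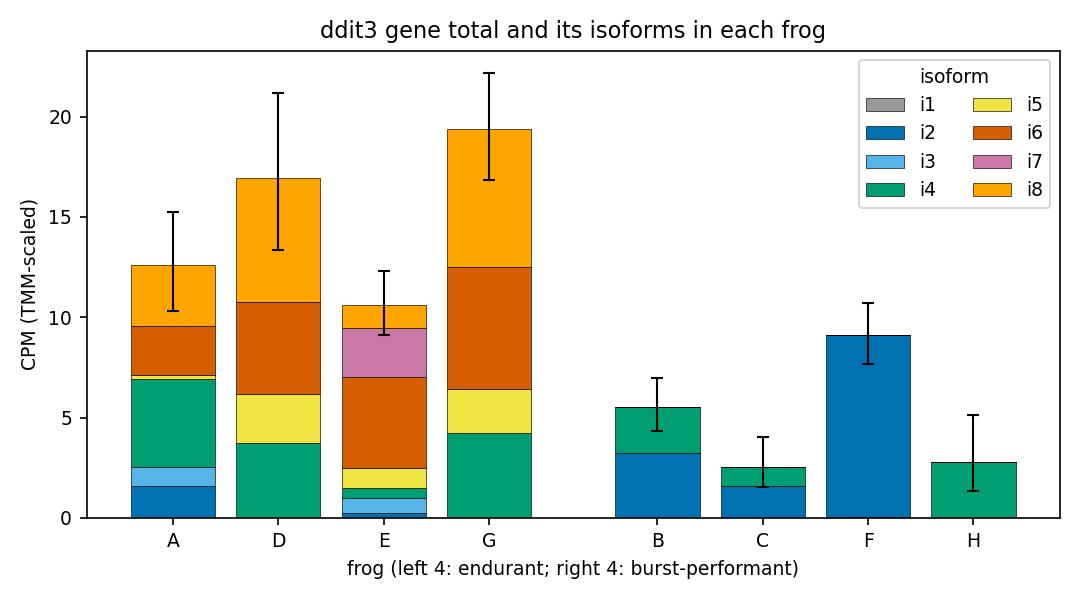
Level of the ddit3 gene in each frog in TMM-scaled CPM, stacked by isoform, with exact 95% counting intervals of the total as error bars. Totals run from 10.6 to 19.4 CPM in the 4 endurant frogs and from 2.56 to 9.10 CPM in the 4 burst-performant frogs, and the intervals of frogs E and F overlap.

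The difference of the mean log2(CPM + 1) of the gene total was 1.50, endurant minus burst-performant. The absolute difference had a median of 0.23 over the 35654 Trinity genes that passed a CPM of 1 in 2 or more frogs, and 99.4% of these genes had a smaller one than *ddit3*. With a mean of 9.94 CPM over the 8 frogs, the gene was more abundant than 82.8% of these Trinity genes, whose median was 2.03 CPM. Its coefficient of variation over the 8 frogs was 62.6%, and the median of the Trinity genes was 48.9%. These places among genes describe the data and, given how the gene was chosen, support nothing further.

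The isoforms i5, i6 and i8 held 67.3% of the pooled endurant counts of the gene. They held 45.19% of the gene's counts in frog A, 77.9% in D, 62.5% in E and 78.3% in G, an endurant mean of 66.0 ± 15.7% (SD, n = 4). They held none of the counts of burst-performant frogs, where the Wilson 95% interval allows up to 5.07, 17.6, 2.62 and 27.8% in frogs B, C, F and H. The sum of the other 5 isoforms averaged 4.71 ± 1.47 CPM among endurant and 5.0 ± 3.05 CPM among burst-performant frogs (SD, n = 4 each), with overlapping groups. Within that sum the isoforms tilted in opposite ways. The isoform i4 averaged 3.21 CPM among endurant and 1.52 CPM among burst-performant frogs, and i3 and i7 were found only in endurant frogs. The isoform i2 went the other way, at 0.454 against 3.46 CPM, with 142 of its 195 burst-performant counts in frog F, as did i1 with 1 count. As i5, i6 and i8 were picked for their difference, the sum of the other 5 is not an independent measure.

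Within the burst-performant group, the makeup of the gene also varied. The isoform i2 held 58.3% of the counts in frog B (46.8 to 69.01%), 61.1% in frog C (38.6 to 79.7%) and 99.3% in frog F (96.1 to 99.9%), and frog H had only i4. In endurant individuals, the isoform with most counts was i4 in frog A, i8 in frogs D and G and i6 in frog E. By TPM, which divides by length, it was i5 in endurant frogs D and G and i4 in burst-performant frog B. Which isoform came first within these 3 frogs thus depended on the length correction.

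Neither the relation of the gene total to maximum velocity nor that to maximum acceleration passed the test. With so few frogs this does not show that a relation is absent. With maximum velocity, the total on the log2(CPM + 1) scale had a Pearson's r of -0.515 (exact permutation test over all pairings, 2-sided, p = 0.193, adjusted 0.29 over 3 relations) and a Spearman's rho of -0.587 (exact permutation p = 0.135, adjusted 0.256). Without frogs D and C, r was -0.146. Frog D lay farthest from the median velocity. Frogs C and F tied next, and C was left out only because it came first in the order of the frogs. With maximum acceleration, r was -0.554 (exact permutation p = 0.145, adjusted 0.29) and rho was -0.548 (exact permutation p = 0.171, adjusted 0.256). Without frogs C and A, r was -0.561, but without frog C alone it was -0.158. With library depth, the total had an r of 0.0981 (exact permutation p = 0.81, also when adjusted) and a rho of 0.0238 (exact permutation p = 0.977, also when adjusted), and r was -0.020 without frogs H and D. Velocity and acceleration were both among the 4 traits that defined the groups by which the gene was chosen, so that neither correlation is independent of that choice, and 4 frogs per group are too few for a correlation within a group.

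**Figure D4:**
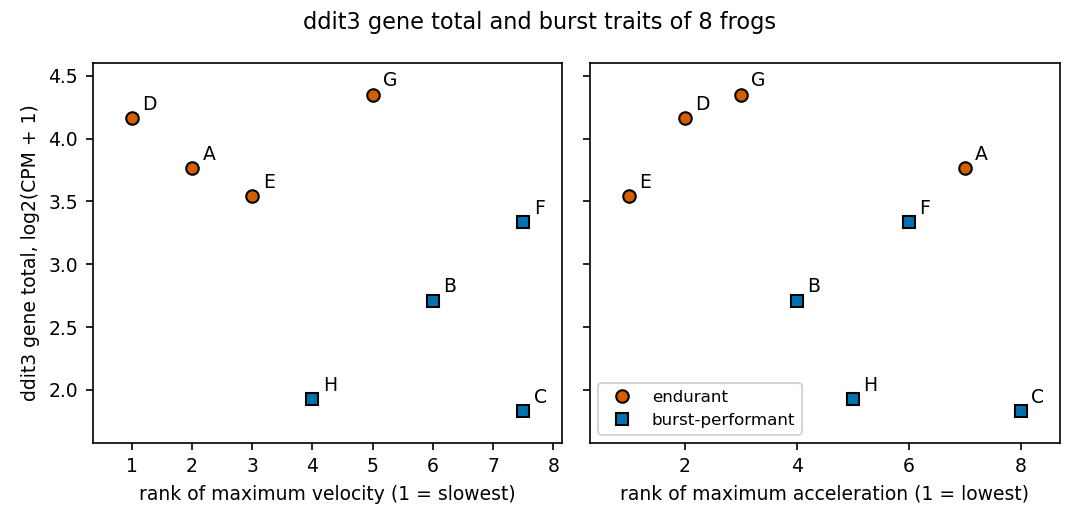
Gene total of ddit3 in log2(CPM + 1) against the rank of each frog in maximum velocity (left) and maximum acceleration (right), with rank 1 for the lowest of 8 frogs and endurant frogs as circles. Every endurant frog lies above every burst-performant frog on the vertical axis, which is the description already given of the totals.

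Of the isoforms found in both groups, i2 tended towards the faster frogs and i4 towards the slower ones, and neither relation passed the test. These 4 relations were chosen after the isoform values were seen. With velocity, r was 0.637 for i2 (exact permutation p = 0.0902, adjusted 0.361 over 4 relations; rho = 0.528, exact permutation p = 0.182, adjusted 0.303) and 0.629 without frogs D and C. For i4 it was -0.520 (exact permutation p = 0.182, adjusted 0.364; rho = -0.599, exact permutation p = 0.125, adjusted 0.303) and -0.395 without them. With acceleration, r was 0.349 for i2 (exact permutation p = 0.408, adjusted 0.545; rho = 0.488, exact permutation p = 0.227, adjusted 0.303) and -0.112 for i4 (exact permutation p = 0.798, also when adjusted; rho = 0, exact permutation p = 1). Without frogs C and A these became 0.680 and -0.256. Frog F, tied with frog C for the highest velocity and with the highest i2 level at 9.04 CPM, was left out of no relation of i2. How far these relations rest on frog F was not tested.

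Distance and time before exhaustion separated the groups without overlap, so that no pooled correlation is given for them. Within the endurant group, frog E covered the largest distance for the longest time and had the lowest *ddit3* total, and frog D, last in both traits, had the second highest total. Endurant frog G, second in time, had the highest total. Frog A, second in distance and 3rd in time, had the 3rd highest. Within the burst-performant group, frog F had the longest time and the highest total. Frog B, second in time, also had the second highest total, but was last in distance. Frog C, 3rd in time and first in distance, had the lowest total, and frog H, last in time, had the 3rd highest. The order of the totals thus matched that of neither trait exactly in either group, with 4 frogs each and no test. In the burst-performant group it differed from the order by time only in frogs C and H, whose totals of 2.56 and 2.79 CPM rest on 18 and 10 counts. In the endurant group it ran nearly opposite to the order by distance.

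The read cluster TR63133, from which the assembler also built this gene, held 6 other Trinity genes with 8 transcripts of 255 to 1782 bases. Of these transcripts 4 were tested, 0 passed the quasi-likelihood test of edgeR and 0 had an unadjusted p under 0.05. Of all 55631 tested transcripts 0 passed it and 2038 had an unadjusted p under 0.05, so that nothing is read from these 4. The tested transcript whose level followed the *ddit3* total most closely was c4_g1_i1, with 33 counts in frog A, 16 in D, 58 in E and 53 in G of the endurant group, against 49 in B, 19 in C, 48 in F and 5 in H. Its mean was 3.96 ± 0.630 CPM among endurant and 2.73 ± 0.995 CPM among burst-performant frogs (SD, n = 4 each), a log2 fold change of 0.52 (edgeR, quasi-likelihood, adjusted p = 1). The transcript c1_g1_i1 averaged 2.09 ± 0.583 CPM among endurant and 1.84 ± 0.907 CPM among burst-performant frogs.

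Among the 95 other Trinity genes that carry a symbol of the study's list, the totals most like that of *ddit3* over the 8 frogs, by Pearson's r on log2(CPM + 1), were those of LOC108713633 (r = 0.926), LOC108712641 (r = 0.904) and *mfn1* (r = 0.891), which encodes a mitofusin of the outer mitochondrial membrane. The 4th highest r of a labelled gene also rounded to 0.891. LOC108713633 averaged 24.8 ± 3.96 CPM among endurant and 12.4 ± 2.73 CPM among burst-performant frogs (SD, n = 4 each). The most opposed were *ocm4.1* (r = -0.948), a calcium-binding protein of the parvalbumin family, *tspan7* (r = -0.934), a tetraspanin of the cell membrane, and *arpc4* (r = -0.880), a subunit of the Arp2/3 complex. The *ocm4.1* total averaged 5440 ± 639 CPM among endurant and 11226 ± 4724 CPM among burst-performant frogs. The median r was 0.139 over the 95 labelled genes and 0.0559 over all 35653 other Trinity genes compared. Of the latter, 0.104% had a higher r than LOC108713633. All labelled genes had been listed for a difference between these same frogs, so that these values describe the likeness only.

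A list of 7 symbols was picked by hand from the study's list for known roles in stress signalling, apoptosis, mitochondria, translation or lysosomes, and does not hold every such gene. Its members *mapk8*, *rps6ka4*, *tp53inp2*, *eif5b*, *mfn1*, *ctsb* and *ctsc* had 1 entry each. In edgeR's quasi-likelihood test 0 of these 7 transcripts passed the threshold in either direction, as did 0% of all tested transcripts, and the exact test, by which they were joined, had 4 higher in endurant and 3 higher in burst-performant individuals, against 0.11% of all tested transcripts called higher in endurant and 0.196% called in either direction. As all 7 were joined through their calls in that test, nothing is read from this count. The *mapk8* transcript, of the stress-activated kinase JNK1, had 35 counts in frog A, 11 in D, 45 in E and 16 in G of the endurant group and 0 in the burst-performant group. Its gene total averaged 29.4 ± 2.95 CPM among endurant and 27.8 ± 4.06 CPM among burst-performant frogs (SD, n = 4 each). The *mapk8* total thus differed by 0.09 on the log2(CPM + 1) scale, against 1.50 for *ddit3*. The totals of *ctsb*, a lysosomal cathepsin, and *eif5b*, a translation initiation factor, differed by 0.01 on that scale, and *mfn1* had the largest difference of the 7 totals, at 0.37.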

How the data were processed

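Paired-end reads were trimmed by the authors with Trimmomatic, pooled over all frogs, assembled de novo with Trinity and quantified per transcript and frog with Kallisto. Versions of these tools were not given in the sources used here. In the deposited tables the estimated counts are of read pairs, uncorrected for depth or length, and pairs that matched several transcripts were shared among them, so that the split between isoforms is itself an estimate. The deposited TPM values were derived by Kallisto by dividing counts by effective length, with a sum of 1000000 in each frog. The deposited lengths are in bases.

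Estimated counts were rounded, so that counts under 0.5 became 0. Transcripts whose CPM passed 1 in 2 or more frogs were fitted with edgeR 4.0.16 (TMM, quasi-likelihood test, R 4.3.3) over the whole table. Alternatives were edgeR's exact test on counts and on TPM values, DESeq2 1.42.0, limma 3.58.1 on log2(TPM + 1), other scalings and filters, a pseudocount of 0.1 and each frog left out. Nothing says that libraries were prepared in batches. Permutation tests enumerated all 40320 pairings of 8 frogs (scipy 1.17.1). The trait values of the frogs were taken from the study's article. Fits were also run on simulated counts with 200 changed transcripts at a log2 fold change of 4. The share recovered is not given here, so that this run does not tell how much the quasi-likelihood test can miss.

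Members, lists and tests were chosen with earlier results of these data known. All 8 isoforms are named. Of the other labelled Trinity genes, the 3 with the highest and the 3 with the lowest correlation with the *ddit3* total are named, beside a list of 7 stress and apoptosis symbols, muscle symbols and *spib.S*. The transcripts c4_g1_i1 and c1_g1_i1 were named after their values were seen. The frogs are separate animals, so that the spread is that between individuals. Depth per frog ran from 4448539 to 17358451 counts. In frogs C and D, with 9119271 and 4715086, the counts were a far smaller part of the study's read pairs than in any other frog. Why this was so was not tested.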

Additional observations from a re-analysis of the deposited data

Results flagged for a closer look

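Of the 13 groups of 4 frogs in which the gene total, the isoforms and the share of i5, i6 and i8 could be examined, 4 held a frog whose gap to the next was most of the whole range. Chance alone marks about 1 group in 20, and groups with 3 frogs at or near 0 are marked readily. In endurant individuals, i2 was high in frog A, at 1.57 CPM, where frog E had 0.242 CPM and frogs D and G had none. The isoform i4 was low in endurant frog E, at 0.543 CPM, where the other 3 endurant frogs lay between 3.74 and 4.36 CPM. The isoform i7 was found at 2.48 CPM in frog E only. In burst-performant individuals, i1 was at 0.0637 CPM in frog F, which is 1 count. Frog E was thus set apart by both i4 and i7, with 9 and 41 counts.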

How the results depend on the processing

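The number of *ddit3* isoforms past the threshold was 0 in edgeR's quasi-likelihood test, 3 in edgeR's exact test (i5, i6 and i8), 3 in DESeq2's Wald test and 1 (i6) in the quasi-likelihood test with no filter on low counts. It was 0 in the exact test on TPM values, limma, DESeq2's size factors, library size only, filterByExpr and a CPM above 1 in 4 frogs. With each of the 8 frogs left out in turn it was 0 to 0 in the quasi-likelihood test and 2 to 3 in the exact test. That repeat of the exact test was chosen after seeing the data. Over all transcripts it called between 145 of 52949 and 184 of 54433 tested, against 109 of 55631 with all 8 frogs. The repeat kept i6 and i8 in all 8 fits and i5 in 1, the fit without frog A. As the exact test chose the gene on these same counts, nothing is read from this. Without frog D and without frog G, i5 fell under the filter on low counts and was not tested. In the other 5 fits its log2 fold change lay between 6.73 and 6.98 with an adjusted p of edgeR's exact test between 0.0603 and 0.127. For the other differences between tests, the cause was not tested. Over all transcripts, 0 were called in the quasi-likelihood test, 109 in the exact test, 153 in DESeq2, 4 in the exact test on TPM values, 5 in limma and 13 with no filter.

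The endurant minus burst-performant difference of the gene total stayed positive under all alternatives run, between 1.30 and 1.80 with a frog left out. The share of i5, i6 and i8 in endurant frogs lay between 61.9 and 72.9% with a frog left out. With a frog left out, the correlation of the gene total lay between -0.649 and -0.317 for velocity, between -0.713 and -0.158 for acceleration and between -0.312 and 0.405 for depth. It turned negative for depth only without frog H, and no adjusted p was under 0.125. No paired analysis was possible because the frogs are 8 separate animals and their replicate numbers, given in accession order, tie no frog of one group to a frog of the other. Counts of 10 and 18 in frogs H and C limit the burst-performant totals most.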
